A study of Mus musculus with 6 samples.

Results

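A set of 10 nuclear receptor genes was followed in RNA-seq of mouse retinal ganglion cells (RGCs), the neurons whose axons form the optic nerve, between embryonic day 18 (E18) and postnatal day 5 (P5). They are the thyroid hormone receptors Thra and Thrb, the retinoid X receptor Rxrg, the retinoid-related orphan receptors Rora and Rorb, the COUP transcription factors Nr2f1 and Nr2f2, the oestrogen-related receptor Esrrg, the orphan receptor Nr4a2 (Nurr1) and the glucocorticoid receptor Nr3c1. They were chosen by gene symbol, and each of the 10 matched 1 row among the 24060 genes of the count table. RGCs were purified from C57BL/6 mice of either sex by immunopanning, in which dissociated retinal cells are first depleted of macrophages with antibodies and the RGCs are then held on a dish coated with an antibody against Thy1 (CD90). There were 3 samples per age, replicates 1, 3 and 4 at E18 and replicates 6, 8 and 9 at P5, and the labels give no genetic change or treatment at either age. The sources used here do not say how many animals went into a sample or whether the samples were separate preparations, so the p-values measure the spread between these samples only. The comparison asks how these receptors differed between an age at which RGCs extend axons readily and one at which that capacity has been lost.

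Nuclear receptors are transcription factors, and many are switched by a small lipophilic ligand that enters the cell. Thyroid hormone receptors repress their target genes without hormone and activate them with it, usually as heterodimers with a retinoid X receptor, and they exchange corepressors for coactivators when hormone binds. Thrb is known in the retina for its part in cone opsin choice, Rorb for its part in photoreceptor and interneuron development, and the COUP transcription factors for regional patterning of the eye.

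Counts were scaled by library size with TMM factors into CPM, which give a gene's counts relative to the scaled total of its library, and the ages were compared with the quasi-likelihood test of edgeR. Fold changes are given as P5 over E18 on the log2 scale, so that a positive value means a higher level at P5, and a gene was called when its Benjamini-Hochberg adjusted p over the 16449 genes tested was below 0.05. Total counts per sample ran from 81213639 to 114512853. Summed RGC markers were 9550 to 11267 CPM at E18 and 9871 to 10968 CPM at P5. Single markers in this sum moved both ways. Of the 15 listed, all tested, 6 rose and 4 fell at P5, beside 22.5% and 20.8% of all tested genes. Thy1, the antigen of the purification, rose from 247 to 553 CPM in mean, and Isl1 fell from 557 to 260 CPM. The E18 samples differed in RNA of other retinal cells, described here for lists of marker genes. Summed photoreceptor markers were 30.9, 13.2 and 5.01 CPM in E18 replicates 1, 3 and 4 against 4.78 to 5.66 CPM at P5, summed progenitor markers were 315, 139 and 43.1 CPM against 26.4 to 38.9 CPM, and summed dividing-cell markers were 368, 146 and 87.9 CPM against 68.1 to 86.1 CPM. Of 12 photoreceptor markers tested, of 15 listed, 1 rose and 6 fell at P5, of 12 progenitor markers 0 and 7, of 14 dividing-cell markers 0 and 9, and of 9 amacrine markers, of 11 listed, 0 and 4. By unadjusted p under 0.05 in edgeR the counts were 3 and 6, 0 and 8, 0 and 12, and 0 and 6. Summed amacrine markers were 759, 952 and 637 CPM at E18 and 528 to 652 CPM at P5. Pax6 made up most of this sum, at 661, 751 and 622 CPM at E18 and 498 to 629 CPM at P5. The amacrine factor Tfap2b was at 47.5, 119 and 1.62 CPM at E18 and at 1.02 to 1.55 CPM at P5. E18 replicate 4 was thus close to the P5 samples in these lists and E18 replicates 1 and 3 were not. Libraries were left out only 1 at a time, so no comparison was made without E18 replicates 1 and 3 together. A value without either of these libraries still includes the other, and such values are given for some results only. In the other lists, summed horizontal cell markers were 20.7 to 43.4 CPM at E18 and 15.8 to 24.4 CPM at P5. Microglial markers were 2.37 to 3.25 and 1.77 to 2.45 CPM. Bipolar markers were 48.7 to 65.3 and 71.4 to 100.1 CPM, mostly Prkca, at 40.7 to 45.5 and 64.8 to 92.2 CPM. Glial markers were 353 to 428 and 320.3 to 328 CPM, mostly Glul, at 313 to 326 and 230.4 to 273 CPM. Vascular markers were 16.5 to 72.8 and 14.6 to 17.9 CPM. Kdr, which was at 69.5, 62.9 and 14.1 CPM at E18, made up most of the high E18 values of the vascular list. Of 8 vascular markers tested, of 9 listed, 3 rose and 1 fell at P5, so this sum stands mainly for Kdr. In bulk samples, fewer cells of a type and less RNA per cell cannot be told apart.

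Of the 10 receptors, 6 were called. Thrb, Esrrg and Rora rose, and Rorb, Nr2f1 and Rxrg fell. The background was high, with 43.4% of all tested genes called, 22.5% higher and 20.8% lower at P5, and 3 of 10 receptors in each direction stood near those shares. The values of 8 of the 10 did not overlap between the ages, against 56.1% of all tested genes. The median log2 fold change of the 10 was −0.35 and that of all tested genes −0.00. The 6 calls held under all 13 alternatives tried, which included leaving out each library in turn. All 10 receptors passed the filter on low counts.

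**Figure D1:**
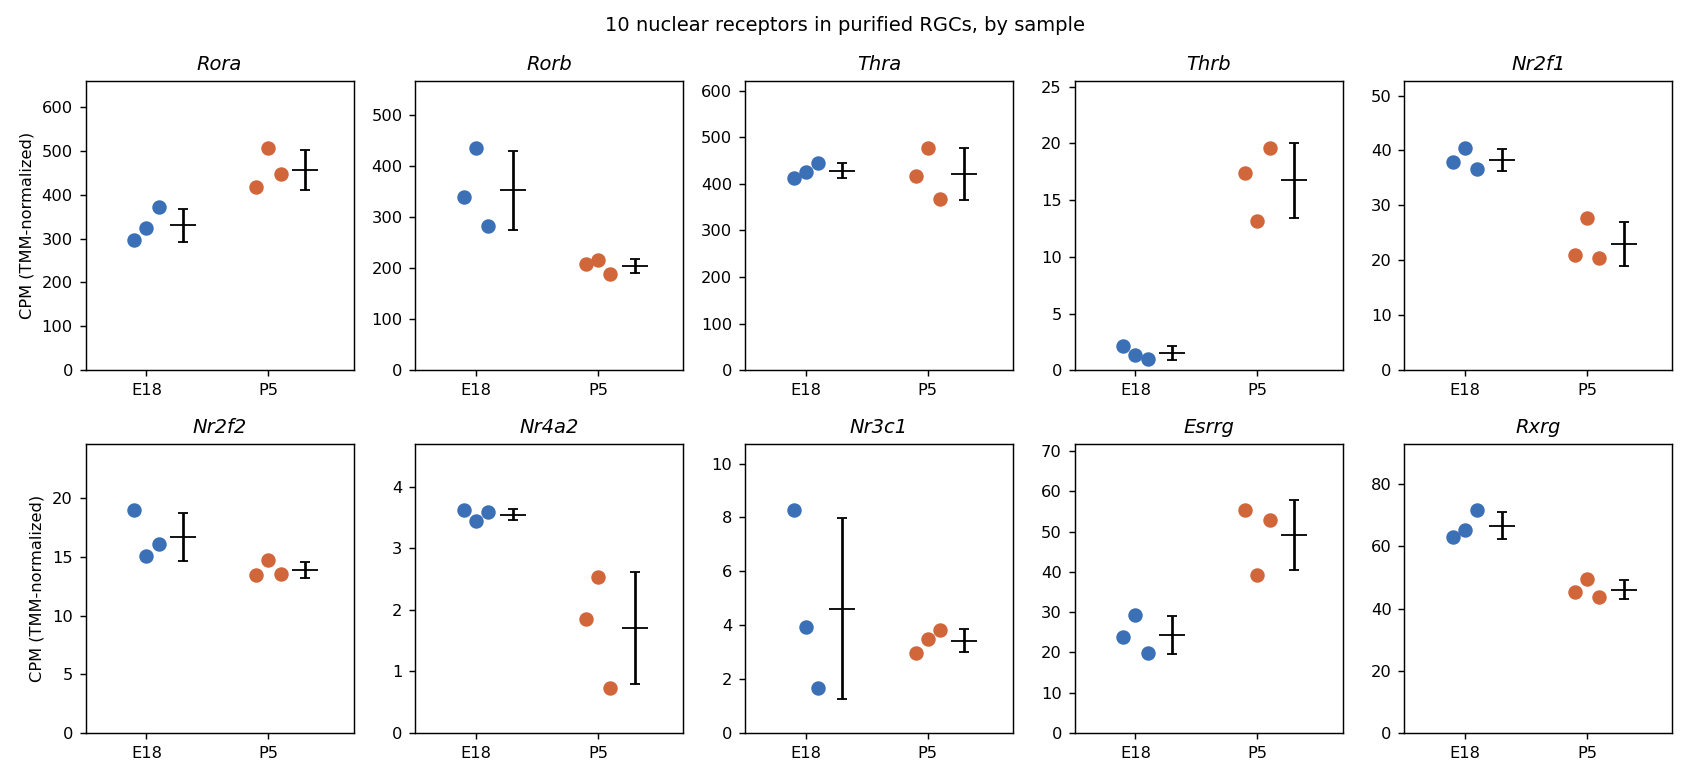
TMM-normalized CPM (vertical axis, from 0, on a scale of its own in each panel) of the 10 receptors in the 3 E18 (blue) and 3 P5 (orange) samples, with the mean and SD of each age as a bar. Thrb lies at 1.02 to 2.15 CPM at E18 and 13.2 to 19.6 CPM at P5, while Thra and Nr3c1 overlap between the ages.

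**Figure D2:**
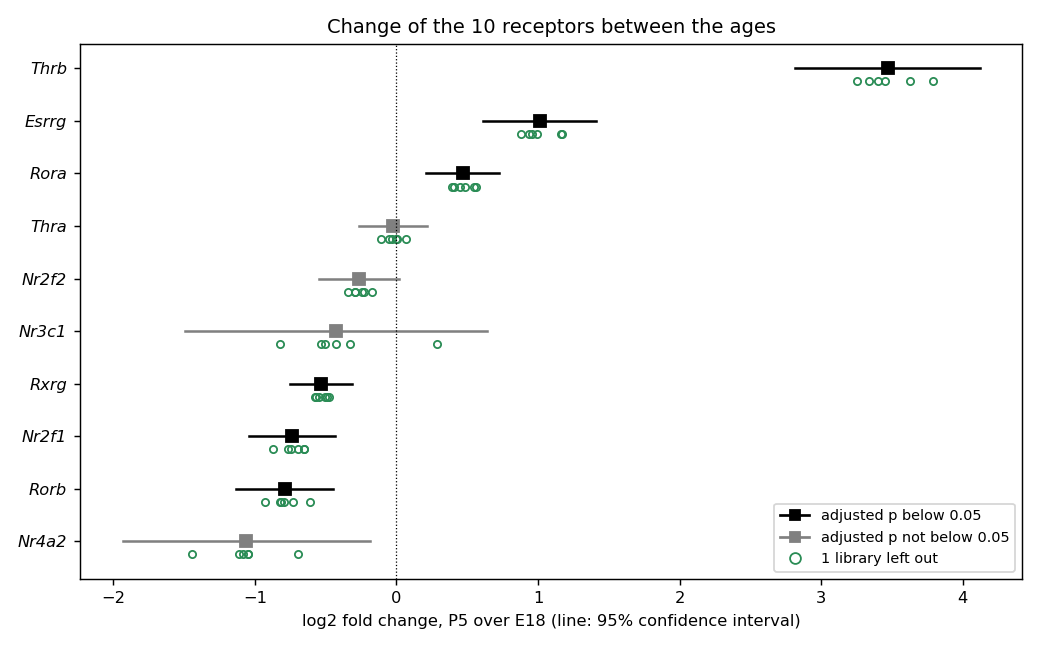
Log2 fold change of P5 over E18 (horizontal axis) for the 10 receptors, with its 95% confidence interval (line) and the values with 1 library left out (green circles). Black squares mark the 6 receptors with an adjusted p below 0.05, and a leave-one-out value of Nr3c1 and values of Thra lie on the other side of 0 from the estimate.

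Levels of different receptors were compared per kilobase of gene length, as CPM divided by the length of all annotated exons of the gene merged. At E18 Thra stood first at 92.8 ± 3.48 CPM per kb (SD, n = 3), followed by Rorb at 31.8 ± 6.97, Rxrg at 29.0 ± 1.92 and Rora at 25.3 ± 2.91. Nr2f1 was at 7.52 ± 0.392, Esrrg at 3.92 ± 0.775, Nr2f2 at 1.94 ± 0.233, Nr4a2 at 0.874 ± 0.0230, Nr3c1 at 0.60 ± 0.436 and Thrb last at 0.205 ± 0.0779 CPM per kb. Sample ranges overlapped between Rorb and Rxrg, Rxrg and Rora, Nr4a2 and Nr3c1, and Nr3c1 and Thrb, so these neighbours were not ordered beyond their spread. At P5 Thra was again first at 91.2 ± 12 CPM per kb, ahead of Rora at 35.0 ± 3.50, Rxrg at 20.1 ± 1.29, Rorb at 18 ± 1.28, Esrrg at 7.92 ± 1.39 and Nr2f1 at 4.52 ± 0.791. Thrb had moved to 2.26 ± 0.443, above Nr2f2 at 1.61 ± 0.0821, Nr3c1 at 0.446 ± 0.0551 and Nr4a2 at 0.419 ± 0.225 CPM per kb. At P5 the neighbours that overlapped were Rxrg with Rorb and Nr3c1 with Nr4a2. The length of 1 RefSeq transcript per gene in place of merged exons, an alternative added after the data had been seen, changed some orders. Nr2f2 moved above Esrrg at E18 and above Nr2f1 and Thrb at P5, since its listed transcript has 1664 bases against 8625 bases of merged exons. At P5 Nr2f2 was then at 8.34 ± 0.426 and Thrb at 2.70 ± 0.529 CPM per kb. Rorb moved above Rxrg at P5.

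The thyroid hormone receptors differed in their change between the ages. Thrb, the beta receptor gene (chromosome 14, 17660261 to 18038090, forward strand, mm10), measured 2.15, 1.38 and 1.02 CPM in E18 replicates 1, 3 and 4 and 17.4, 13.2 and 19.6 CPM in P5 replicates 6, 8 and 9. Every P5 value was above every E18 value, and the mean rose 11.0-fold (log2 fold change 3.47, SE 0.286, adjusted p 0.000157). In raw reads this was 92 to 178 counts at E18 and 1296 to 1845 counts at P5. Leaving out E18 replicate 1, the sample richest in photoreceptor RNA, gave a log2 fold change of 3.79, and the range over all libraries left out was 3.25 to 3.79. Of the 12 photoreceptor markers tested, 1 rose and 6 fell. Crx, a photoreceptor transcription factor, was at 6.15, 2.78 and 0.773 CPM at E18 and 0.173 to 0.425 CPM at P5, and the cone genes Arr3 and Gnat2 were at 0.226 to 0.335 and 0.508 to 0.853 CPM at P5. Within E18 the order of Thrb, replicate 1 above 3 above 4, was also that of the photoreceptor, progenitor and dividing-cell marker sums. The vascular sum, mostly Kdr at E18, had this order too. The part of other cells in the level of Thrb at either age, and in its rise, was not tested.

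RefSeq lists 2 start sites of Thrb that lie 321 kb apart, and the 300 bases around each are shown because the gene-level counts do not separate transcripts from them. The windows run from 250 bases before to 50 bases after the start and were read 5′ to 3′ on the forward strand of GRCm38.p6, at chr14:17660710-17661009 for the distal and chr14:17981394-17981693 for the internal start. Capitals mark AGGTCA, the hexamer that many nuclear receptors bind, 184 bases before the distal start, and TATAAA, 167 bases before the internal start.
Thrb distal start: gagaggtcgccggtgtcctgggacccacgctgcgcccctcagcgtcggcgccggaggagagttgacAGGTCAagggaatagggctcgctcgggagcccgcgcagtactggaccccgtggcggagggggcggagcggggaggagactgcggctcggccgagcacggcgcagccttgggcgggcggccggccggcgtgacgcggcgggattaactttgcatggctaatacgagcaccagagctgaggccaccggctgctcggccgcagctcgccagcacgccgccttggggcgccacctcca
Thrb internal start: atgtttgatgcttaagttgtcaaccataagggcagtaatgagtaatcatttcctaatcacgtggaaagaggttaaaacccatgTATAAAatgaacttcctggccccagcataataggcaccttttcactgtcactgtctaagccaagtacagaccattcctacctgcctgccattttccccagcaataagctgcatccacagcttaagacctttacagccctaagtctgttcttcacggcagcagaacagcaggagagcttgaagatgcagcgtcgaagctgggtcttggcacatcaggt
The letters AGGTCA or TGACCT were found in 2 of the 15 windows of the 8 receptors with an entry, against 16.3% of 32851 mouse windows of the same length. The letters TATAAA or TTTATA were in 3 of 15 against 13.6%, and GGGCGG or CCGCCC in 6 of 15 against 35.7%. These matches describe the sequence and no binding was measured.

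Thra, the alpha receptor gene (chromosome 11, 98740638 to 98769006, forward strand), measured 414, 426 and 445 CPM at E18 and 418, 478 and 367 CPM at P5. The ages overlapped and no difference was called (log2 fold change −0.03, 95% confidence interval −0.27 to 0.22, adjusted p 0.862). The sign depended on single libraries, with 0.00 without E18 replicate 4 and 0.066 without P5 replicate 9. Exons of Thra share 263 bases, 5.70% of their length, with Nr1d1 on the opposite strand, and whether reads were counted by strand is not given in the sources used here. The Thrb share of reads from both receptor genes went from 0.356% ± 0.147 at E18 to 3.92% ± 1.20 at P5 (SD, n = 3). The log2 ratio of Thra to Thrb reads fell by 3.54 with no overlap between the ages, and its exact permutation p of 0.1 (two-sided, adjusted 0.125 over 5 ratios) is the smallest that 3 samples against 3 can give. Reads of the beta gene remained a small part of thyroid hormone receptor reads at both ages.

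Genes around the receptors were taken from lists of known function. Of 8 genes known to respond to thyroid hormone in brain or liver, 5 rose and 0 fell, with a median log2 fold change of 1.11. Over all tested genes 22.5% rose and 20.8% fell, and the counts of each list are to be read beside these shares. By unadjusted p under 0.05 the counts were also 5 and 0. Klf9, a Kruppel-like transcription factor, went from 11.3, 5.75 and 7.82 CPM at E18 to 32.5, 26.2 and 67.1 CPM at P5 (log2 fold change 2.34, SE 0.372, adjusted p 0.00177). Camk4, a calcium-dependent kinase, went from 85.9, 88.6 and 91.2 CPM to 381, 380 and 402 CPM (log2 fold change 2.13, SE 0.0821, adjusted p 1.12e-05). Rasd2, a small GTPase of the brain, rose by 1.47, Nrgn, a postsynaptic calmodulin-binding protein, by 1.22 and Thrsp, a lipogenic gene of the liver, by 1.00 on the log2 scale. The corepressor gene Hr measured 0.51 (adjusted p 0.103), the myelin gene Mbp −0.38 (adjusted p 0.139) and Pcp2 −0.61 (adjusted p 0.193). The number called was 3 without E18 replicate 3 and 7 without P5 replicate 8. A response to hormone was not measured in these samples.

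Of 10 genes that carry, convert or bind thyroid hormone, 8 were tested, 1 rose and 1 fell, with a median of 0.17. Slc7a8, an amino acid transporter that also carries thyroid hormone, rose from 4.27 ± 0.310 to 7.60 ± 1.96 CPM (log2 fold change 0.83, adjusted p 0.0115). Crym, a cytosolic protein that binds thyroid hormone, fell from 8.17 ± 2.44 to 3.86 ± 1.42 CPM (log2 fold change −1.08, adjusted p 0.0234). Dio2, the activating deiodinase, was low at 0.276 to 0.458 CPM at E18 and 0.396 to 0.925 CPM at P5 (log2 fold change 0.91, adjusted p 0.0886), and was called without P5 replicate 8, at 1.22. Dio3, the inactivating deiodinase, was at 0.663, 0.169 and 0.0773 CPM at E18 and at 0.147, 0.102 and 0 CPM at P5 (log2 fold change −1.84, adjusted p 0.156). The Slc7a8 call was lost without E18 replicate 3 (0.77), and the Crym call without E18 replicate 1 (−0.85) or P5 replicate 9 (−0.82). The number called in the list was 1 without E18 replicate 1, E18 replicate 3 or P5 replicate 9.

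**Figure D3:**
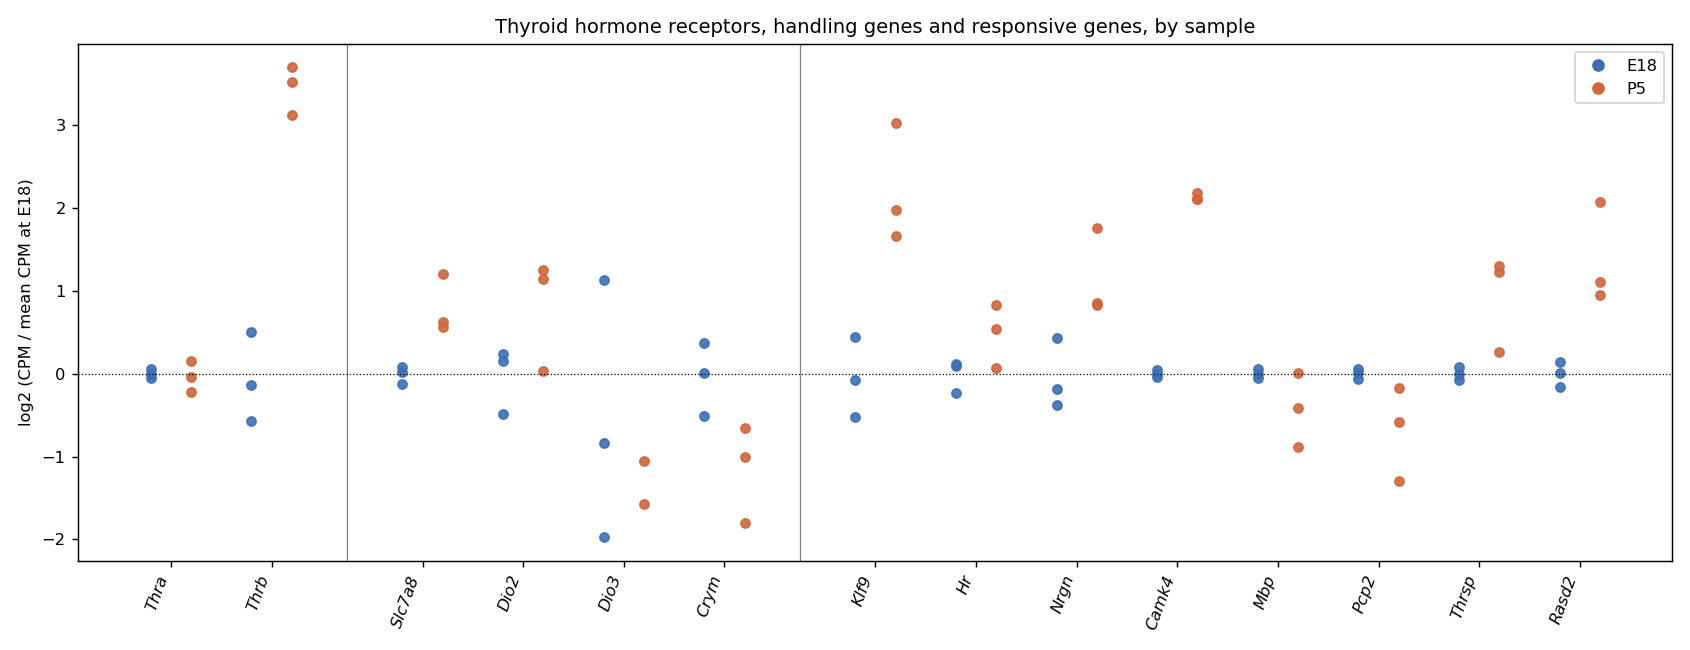
Log2 of CPM over the E18 mean of the same gene (vertical axis) for the receptors, the handling genes named above and the responsive genes, in each E18 (blue) and P5 (orange) sample. Thrb, Klf9 and Camk4 have every P5 sample above every E18 sample, whereas Thra overlaps, and the value of 0 of Dio3 in P5 replicate 9 is not drawn.

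Rxrg, the gamma retinoid X receptor (chromosome 1, 167598384 to 167639623, forward strand), fell. Its levels were 63.0, 65.4 and 71.6 CPM at E18 and 45.2, 49.4 and 43.7 CPM at P5. No P5 sample reached an E18 sample (log2 fold change −0.53, SE 0.0956, adjusted p 0.00301), and the value lay between −0.57 and −0.48 with any library left out. Within E18 Rxrg was highest in replicate 4, where the photoreceptor marker sum was lowest, and the part of other cells in its level was not tested. The second RefSeq window of the gene, at chr1:167618015-167618314, holds AGGTCA 88 bases before its start and is shown, in the same form as above, as the other of the 2 windows with this hexamer.
Rxrg: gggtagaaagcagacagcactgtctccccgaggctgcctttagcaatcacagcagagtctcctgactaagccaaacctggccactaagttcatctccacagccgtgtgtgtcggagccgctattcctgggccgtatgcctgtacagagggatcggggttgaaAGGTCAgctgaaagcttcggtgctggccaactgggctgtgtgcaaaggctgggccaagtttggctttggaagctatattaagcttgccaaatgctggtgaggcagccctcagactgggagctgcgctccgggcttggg
The other retinoid X receptors were not called. Rxra was at 8.56 to 11.5 CPM at E18 and 7.13 to 9.03 CPM at P5 (log2 fold change −0.30, adjusted p 0.169), and Rxrb at 45.3 to 51.3 and 38.1 to 45.5 CPM (log2 fold change −0.15, adjusted p 0.295). Rxrg made up 53.9% ± 1.13 of reads from the 3 retinoid X receptor genes at E18 and 47.7% ± 2.59 at P5. The log2 ratio of Rxrg to Rxrb was 0.495 ± 0.0292 at E18 and 0.111 ± 0.138 at P5 (exact permutation p 0.1, adjusted 0.125), while that of Rxrg to Rxra was 2.78 ± 0.286 and 2.55 ± 0.239 (exact permutation p 0.3, adjusted 0.3).

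Of 14 genes that make, take up, bind or break down retinoids, 13 were tested, 2 rose and 4 fell, with a median of −0.19. Stra6, the retinol uptake receptor, fell from 3.12, 4.23 and 4.08 CPM to 0.733, 0.569 and 0.840 CPM (log2 fold change −2.41, SE 0.244, adjusted p 0.000312), and Rdh10, which oxidises retinol, fell by 0.85 on the log2 scale. Lrat, which esterifies retinol for storage, rose from 0.990 ± 0.176 to 3.31 ± 0.620 CPM (log2 fold change 1.74, adjusted p 0.000999). Retinoic acid itself was not measured.

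The retinoid-related orphan receptors went opposite ways. Rora (chromosome 9, 68653786 to 69388246, forward strand), which acts at elements shared with the clock repressors Nr1d1 and Nr1d2, measured 296, 324 and 371 CPM at E18 and 417, 507 and 447 CPM at P5 (log2 fold change 0.47, SE 0.113, adjusted p 0.0110). Rorb (chromosome 19, 18930605 to 19111196, reverse strand) measured 339, 436 and 283 CPM at E18 and 209, 215 and 188 CPM at P5 (log2 fold change −0.79, SE 0.150, adjusted p 0.00381). Neither gene overlapped between the ages, and with 1 library left out Rora stayed between 0.39 and 0.56. The order of Rorb within E18, replicate 3 above 1 above 4, was that of the amacrine marker sum, and without E18 replicate 3 its log2 fold change was −0.61. In E18 replicate 4 the amacrine marker sum was 637 CPM, of which Pax6 alone was 622 CPM, and Rorb was 283 CPM. At P5 the sum was 528 to 652 CPM, Pax6 498 to 629 CPM and Rorb 188 to 215 CPM. Tfap2b, also in this list, had the same E18 order, with 1.62 CPM in E18 replicate 4 and 1.02 to 1.55 CPM at P5. The part of amacrine RNA in the Rorb difference was not tested. The log2 ratio of Rora to Rorb was −0.08 ± 0.421 at E18 and 1.16 ± 0.141 at P5, a difference of 1.24 with no overlap (exact permutation p 0.1, adjusted 0.125). Per kilobase, Rora was above Rorb in each P5 sample, while at E18 Rorb was ahead in replicates 1 and 3 and Rora in replicate 4.

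Of 17 circadian clock genes, several of which carry elements bound by these receptors, 6 rose and 5 fell, with a median of 0.14. Per3, a period gene, rose from 8.99 ± 0.973 to 24.9 ± 10.5 CPM, Dbp, a clock-output transcription factor, from 4.60 ± 0.333 to 10.3 ± 5.19 CPM and Nr1d2, a clock repressor, from 43.1 ± 6.41 to 92.7 ± 22.4 CPM. Nfil3, a repressor at Dbp sites, fell from 76.3 ± 3.57 to 24.4 ± 7.68 CPM (log2 fold change −1.65, adjusted p 0.000825), Per1, a period gene, by 0.84 and Ciart, a clock repressor, by 0.69 on the log2 scale. P5 replicate 9 was the highest P5 sample for Per3, Dbp and Nr1d2. The time of day of collection is not given in the sources used here. The number called was 6 without E18 replicate 1 or 3 and 7 without P5 replicate 9. Dbp was no longer called without E18 replicate 3 (1.10), Ciart without E18 replicate 1 (−0.69), E18 replicate 3 (−0.63) or P5 replicate 6 (−0.46), and Per1 without E18 replicate 1 (−0.81), E18 replicate 3 (−0.88), P5 replicate 6 (−0.67) or P5 replicate 9 (−0.66).

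The COUP transcription factors were both lower in mean at P5, and Nr2f1 alone was called. Nr2f1, COUP-TFI (chromosome 13, 78188973 to 78199757, reverse strand), measured 37.9, 40.5 and 36.6 CPM at E18 and 20.9, 27.7 and 20.5 CPM at P5 (log2 fold change −0.74, SE 0.134, adjusted p 0.00318), with −0.87 to −0.66 when 1 library was left out. Nr2f2, COUP-TFII (chromosome 7, 70351944 to 70366735, reverse strand), measured 19.0, 15.1 and 16.1 CPM at E18 and 13.4, 14.7 and 13.5 CPM at P5. Its ages did not overlap, but the difference was not called (log2 fold change −0.27, 95% confidence interval −0.55 to 0.02, adjusted p 0.114). The log2 ratio of Nr2f1 to Nr2f2 was 1.20 ± 0.213 at E18 and 0.716 ± 0.170 at P5, with no overlap (exact permutation p 0.1, adjusted 0.125). Exons on the opposite strand cover 123 bases of Nr2f1 (A830082K12Rik, 2.42% of its exons) and 643 bases of Nr2f2 (B130024G19Rik, 7.46%), and reads from these genes cannot be told apart if strand was not used.

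Of 23 coregulators, the proteins that nuclear receptors recruit, all were tested, 4 rose and 11 fell, with a median log2 fold change of −0.27, beside 22.5% higher, 20.8% lower and a median of −0.00 over all tested genes. Lcor, a ligand-dependent corepressor, fell from 68.4, 81.2 and 64.7 CPM to 23.1, 33.1 and 17.3 CPM (log2 fold change −1.54, adjusted p 0.00104). Ncor1, a corepressor that thyroid hormone receptors recruit without hormone, was at 340 to 371 CPM at E18 and 351 to 366 CPM at P5 (log2 fold change 0.02, adjusted p 0.846). Zfpm2, a zinc finger partner of COUP transcription factors, fell by 1.03 on the log2 scale. It measured 8.61, 11.2 and 4.29 CPM at E18 and 4.75, 3.02 and 4.02 CPM at P5, so the ages overlapped. Its order within E18, replicate 3 above 1 above 4, was that of the amacrine marker sum. The part of amacrine RNA in the Zfpm2 difference was not tested. Bcl11a, a further COUP-TF partner, fell from 33.9 ± 2.90 to 16.6 ± 0.476 CPM (log2 fold change −1.03, adjusted p 0.000336). Among those that rose were Bcl11b, another COUP-TF partner, at 0.59, and the coactivators Ppargc1a at 1.07 and Ppargc1b at 1.16. The number called was 9, with 3 higher and 6 lower, without E18 replicate 1, E18 replicate 3 or P5 replicate 9. Zfpm2 was no longer called without any 1 library other than E18 replicate 4 (−1.18 to −0.72), and Ppargc1b without E18 replicate 3 (1.00) or P5 replicate 9 (0.82). The sign of Ncor1 turned without E18 replicate 1 (−0.0063).

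Esrrg, the gamma oestrogen-related receptor (chromosome 1, 187608791 to 188214885, forward strand), a regulator of mitochondrial genes that needs no known natural ligand, measured 23.9, 29.4 and 19.8 CPM at E18 and 55.3, 39.3 and 52.9 CPM at P5. The ages did not overlap and the mean rose 2.02-fold (log2 fold change 1.01, SE 0.176, adjusted p 0.00259), and it was 0.88 to 1.17 on the log2 scale with 1 library left out. Ppargc1a, a coactivator of this family, also rose and measured 6.40, 5.42 and 5.99 CPM at E18 and 10.7, 12 and 14.7 CPM at P5 (adjusted p 0.00137). Of 13 known targets of oestrogen-related receptors, 12 were tested, 8 rose and 2 fell, with a median of 0.34, beside shares of 22.5% higher and 20.8% lower over all tested genes. Idh3a, a subunit of isocitrate dehydrogenase, rose from 79.0, 70.6 and 78.9 CPM to 177, 138 and 206 CPM (log2 fold change 1.19, adjusted p 0.000583). Cycs, which encodes cytochrome c, rose by 0.55 and Sod2, the mitochondrial superoxide dismutase, by 0.50, and Perm1, a muscle regulator of these genes, fell by 0.47 on the log2 scale. The number called was 4 without E18 replicate 1 or 3, 6 without E18 replicate 4 and 5 without P5 replicate 9, and Perm1 was no longer called without E18 replicate 1 (−0.50), E18 replicate 3 (−0.43), E18 replicate 4 (−0.50) or P5 replicate 9 (−0.40).

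Nr4a2 (chromosome 2, 57106830 to 57124003, reverse strand), which is both an early response gene and a regulator of dopaminergic neurons, measured 3.62, 3.44 and 3.59 CPM at E18 and 1.85, 2.53 and 0.723 CPM at P5. Every P5 value was below every E18 value, but with the spread at P5 the difference was just short of the threshold (log2 fold change −1.06, SE 0.385, adjusted p 0.0521). It was called in 6 of 13 alternatives, among them DESeq2 (adjusted p 0.00928), edgeR's likelihood ratio test (adjusted p 0.0284) and its exact test (adjusted p 0.0299), and without P5 replicate 8 (−1.45) or P5 replicate 9 (−0.69). The related gene Nr4a1 was at 10.4 to 15.4 CPM at E18 and 9.53 to 18.8 CPM at P5 (log2 fold change 0.18, adjusted p 0.598). Immediate-early genes respond within minutes to activity and to tissue dissociation. A list of 16 genes, mostly of this class but with the heat shock genes Hspa1a and Hspa1b, was also summed. The sum was 513, 391 and 501 CPM at E18 and 405, 324 and 249 CPM at P5, and Fos and Jun made up most of it. Jun was at 157, 128 and 175 CPM at E18 and 97.0, 45.6 and 59.9 CPM at P5. P5 replicate 9 was the lowest sample both for this sum and for Nr4a2.

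Of the 16 genes in the immediate-early list, 2 rose and 7 fell, with a median of −0.39. Dusp1, a phosphatase of MAP kinases, fell from 39.7 ± 1.92 to 12.2 ± 3.61 CPM (log2 fold change −1.70, adjusted p 0.000487), Atf3, a stress-induced factor, by 1.60 and Ier2 by 1.32 on the log2 scale. Npas4, an activity-dependent neuronal factor, rose from 9.40 ± 1.73 to 23.9 ± 3.05 CPM (log2 fold change 1.35, adjusted p 0.000642), and Fosb by 0.65. Fos was at 113 to 145 CPM at E18 and 80.6 to 144 CPM at P5 (log2 fold change −0.16, adjusted p 0.558), and at 0.062 without P5 replicate 9. Atf3 was no longer called without E18 replicate 1 (−1.39) or P5 replicate 8 (−1.47), and Fosb without E18 replicate 3 (0.49), E18 replicate 4 (0.67) or P5 replicate 6 (0.44). The share of these changes that arose during purification was not tested. Of 8 genes of the dopaminergic programme linked to Nr4a2, 7 were tested, 2 rose and 1 fell. Ddc, which makes dopamine and serotonin from their precursors, rose from 0.671 ± 0.0867 to 2.10 ± 0.784 CPM, and Slc18a2, the vesicular monoamine transporter, fell from 399 ± 46.5 to 253 ± 67.3 CPM (log2 fold change −0.65, adjusted p 0.0185) and was not called without E18 replicate 4 (−0.56).

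Nr3c1, the glucocorticoid receptor (chromosome 18, 39410545 to 39519421, reverse strand), measured 8.26, 3.92 and 1.67 CPM at E18 and 2.98, 3.49 and 3.82 CPM at P5. The E18 samples spread over the whole P5 range and beyond it on both sides, and no difference was called (log2 fold change −0.43, 95% confidence interval −1.49 to 0.64, adjusted p 0.489). The E18 order, replicate 1 above 3 above 4, was that of the progenitor, dividing-cell and photoreceptor marker sums. The vascular sum, mostly Kdr at E18, had this order too. The part of other cells in the Nr3c1 level was not tested. Without E18 replicate 1 the sign turned, to 0.29 (adjusted p 0.556). Of 8 genes of glucocorticoid activation and receptor chaperoning, 7 were tested, 0 rose and 1 fell by edgeR, with 0 higher and 1 lower by unadjusted p under 0.05. The gene that fell was Fkbp4, a cochaperone of steroid receptors, from 230.3 ± 8.86 to 184 ± 12.7 CPM (log2 fold change −0.33, adjusted p 0.0166), a call lost without E18 replicate 3 (−0.31). Hsd11b1, which regenerates active glucocorticoid, was too low to test, at 0.00892 to 0.147 CPM.

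Of 14 genes known to respond to glucocorticoids, 13 were tested, 4 rose and 4 fell, with a median of 0.09. Among genes with a mean of 1 CPM or more, those that fell most were Dusp1, Per1 and Nfkbia, an inhibitor of NF-kB, at −0.76 on the log2 scale. Above the same mean, those that rose were Klf9, Cdkn1a, an inhibitor of the cell cycle, from 15.9 ± 1.35 to 35.2 ± 1.88 CPM (log2 fold change 1.15, adjusted p 0.000243), and Sgk1, a kinase, from 19.2 ± 1.13 to 25.1 ± 3.82 CPM (adjusted p 0.0443). Klf9 also stands in the thyroid hormone list, and the call on Sgk1 was lost without any 1 library other than P5 replicate 9 (0.31 to 0.42).

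**Figure D4:**
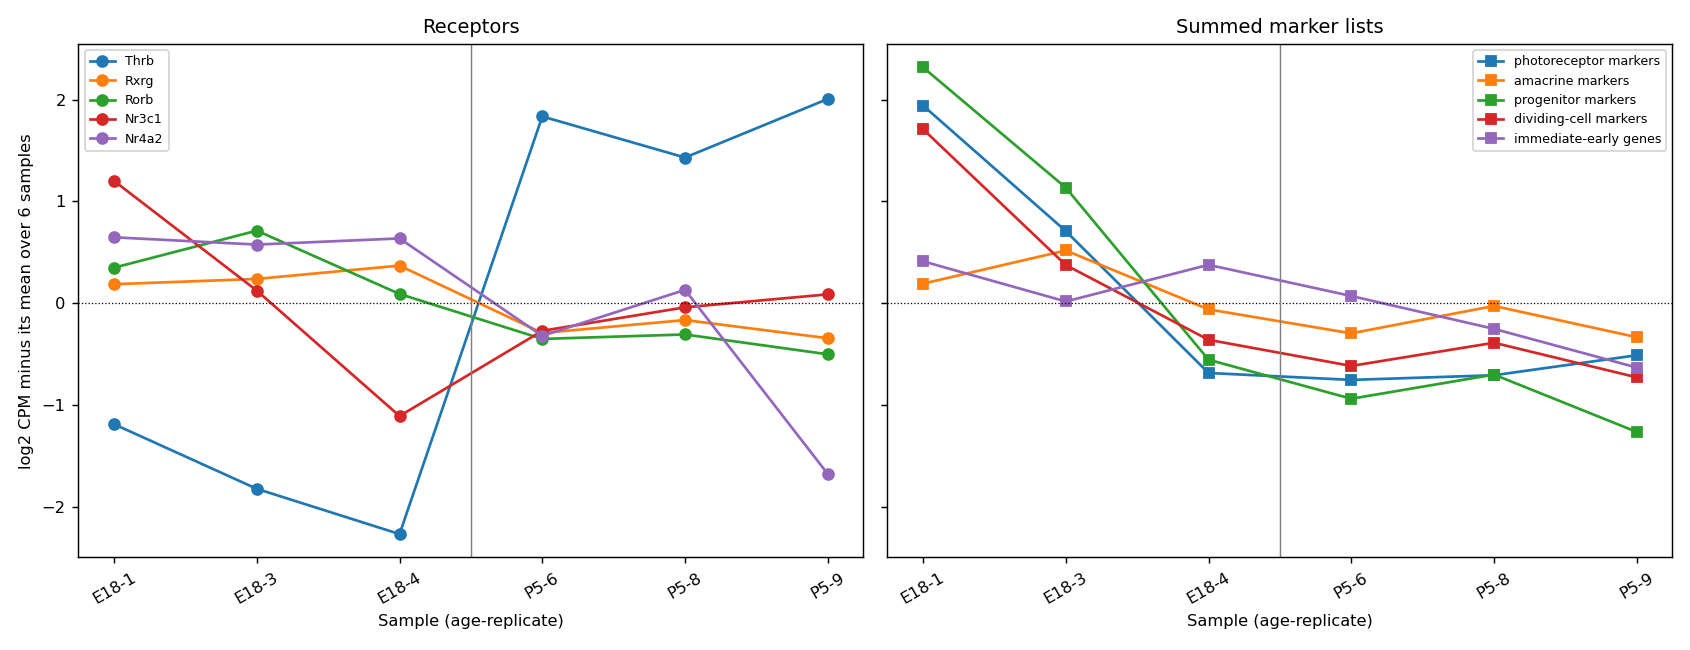
Log2 CPM minus its mean over the 6 samples (vertical axis) for 5 receptors (left) and for the summed CPM of 5 gene lists (right), by sample, with the ages split by a grey line and lines between points only to guide the eye. Nr3c1, like the progenitor, dividing-cell and photoreceptor sums, is highest in E18 replicate 1 and lower in E18 replicate 4 than in 3, and Thrb is high in the P5 samples, in which the photoreceptor sum is 4.78 to 5.66 CPM.

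Beside the 10 receptors, 39 other nuclear receptors were in the table, of which 31 were tested, 8 rose and 4 fell, with a median of 0.03. Of the 49 receptors in all, 20 had a mean under 1 CPM. Thrb had the highest log2 fold change of the 41 tested, followed by Nr3c2, the mineralocorticoid receptor, which also binds glucocorticoids, at 1.05, 1.11 and 0.563 CPM at E18 and 5.26, 3.17 and 9.21 CPM at P5 (log2 fold change 2.69, SE 0.422, adjusted p 0.00169). Pgr, the progesterone receptor, rose from 7.84, 8.43 and 9.22 CPM to 19.5, 20.5 and 20.8 CPM (log2 fold change 1.25, adjusted p 0.000232), and Nr1d2 rose by 1.11. Nr1d1, the other clock repressor of that pair, fell by 0.64 on the log2 scale, Rara, the alpha retinoic acid receptor, by 0.57 and Nr2c1, a testicular orphan receptor, by 0.48. Since Nr1d1 shares exon bases with Thra, its reads carry the limit on strand given above. The number called was 7 without P5 replicate 9, and Rara was no longer called without E18 replicate 1 (−0.51), P5 replicate 6 (−0.45) or P5 replicate 9 (−0.50).

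**Figure D5:**
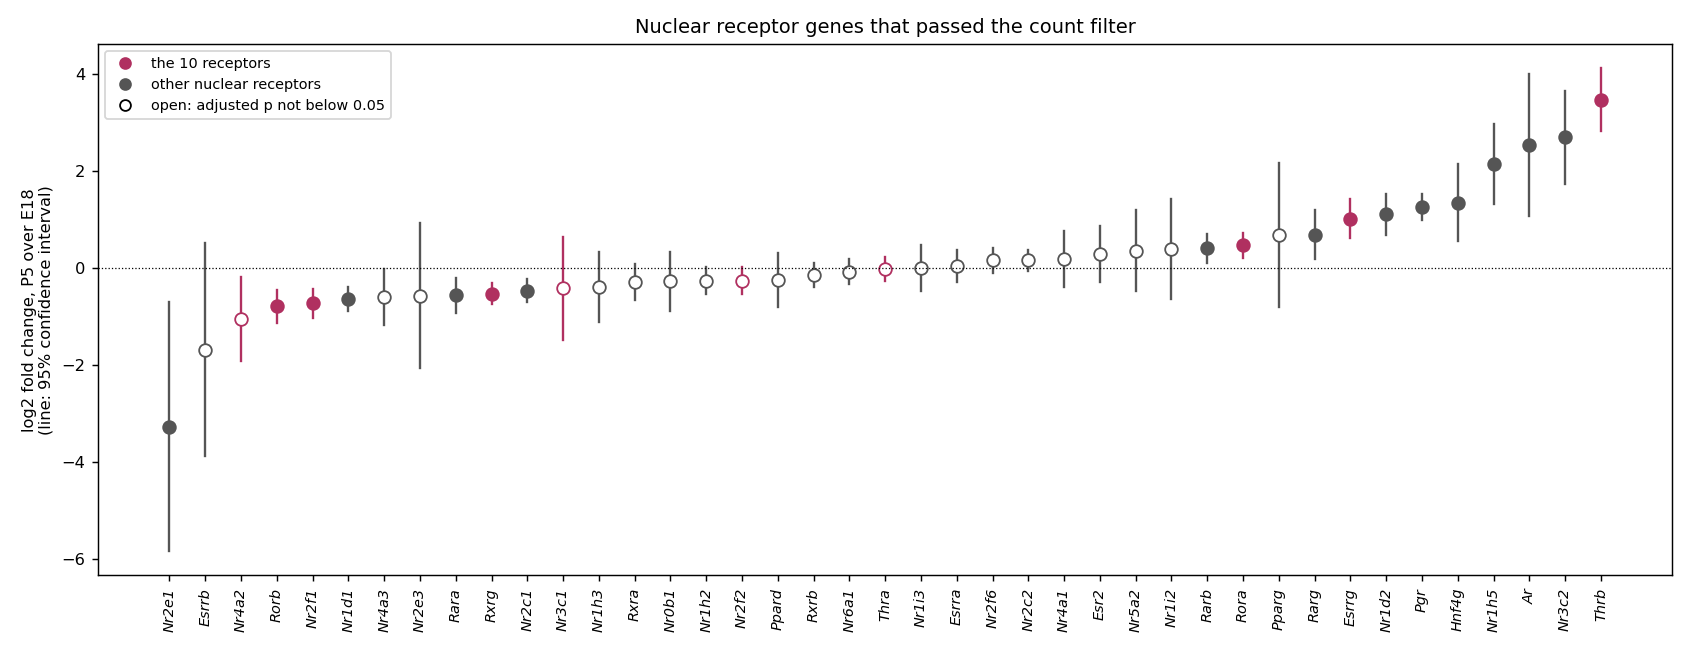
Log2 fold change of P5 over E18 (vertical axis) with its 95% confidence interval for the 41 nuclear receptor genes tested, in order of the estimate. The 10 receptors described are in red and the other 31 in grey, filled where the adjusted p was below 0.05, with Thrb at the right end.

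For the 3 called receptors with the greatest absolute change, the genes whose centred log2 CPM lay closest over the 6 samples were listed by the root mean square difference. For Thrb these were A730046J19Rik (0.138), Ctxn3 (0.148) and Zpld1 (0.236), and Ctxn3, which encodes a small membrane protein, went from 1.66 to 19.3 CPM. For Esrrg they were Slc12a8 (0.0785), Pde5a (0.0982) and Ghr (0.131), of which Ghr, the growth hormone receptor, went from 2.85 to 6.03 CPM. For Rorb they were Acss1 (0.0376), Paupar (0.0434) and Crybg3 (0.0790). With 6 samples in 2 ages such closeness describes these libraries only.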

How the data were processed

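RNA-seq of immunopanned RGCs was compared between 3 E18 and 3 P5 samples, grouped by the age and replicate number in their labels. In the count table the name of the E18 replicate 1 column adds the numbers 2 and 5, and whether preparations were combined is not given. The authors sequenced 100-base paired-end reads, aligned with STAR to mm10 and assigned reads to RefSeq genes by HT-seq, and the deposited values are raw counts for each gene in each sample. The submitters' processing notes also name CASAVA 1.8.2 and edgeR. The labels call the RNA polyadenylated, while the stated protocol is ribosomal RNA depletion. The strand setting and the handling of reads with several matches are not given in the sources used here. The file also holds 9 columns of normalized values and per-sample comparisons, and the authors' fold changes, p-values and false discovery rates, none of which was used. Replicates were compared by chi-square over genes, and none agreed within sampling noise, with 26.0 to 121 per degree of freedom.

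Counts were filtered with filterByExpr, scaled by TMM and fitted in edgeR 4.0.16 (R 4.3.3) by its quasi-likelihood test, and p-values of 16449 genes were adjusted after Benjamini and Hochberg and called below 0.05. Of 24060 genes, 2411 had no count. Ratios used counts plus 0.5 and exact two-sided permutation tests. The code was tested on simulated data. Depth was 81213639 counts or more per sample. Gene models and lengths came from GENCODE for mm10, and promoter windows from a RefSeq table of GRCm38.p6, which had entries for 8 of the 10 receptors. Within each list the 3 largest rises and falls among called genes averaging 1 CPM or more were named, together with Rxra, Rxrb, Dio2, Dio3, Hsd11b1, Ppargc1a, Ncor1, Fos and Nr4a1 whatever their values, and some genes under this rule are counted in their lists but not reported here. Marker genes, Hr, Mbp, Pcp2, Nrgn, Thrsp and Bcl11a were named beside their lists after their values were seen. The receptors and lists were chosen with earlier results of these data known, so no test over a list was made. Alternatives were DESeq2 1.42.0, edgeR's likelihood ratio and exact tests, upper-quartile and RLE normalization, no filter, a filter of 1 CPM in 3 samples, each library left out and, for ratios, other constants.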

Additional observations from a re-analysis of the deposited data

How the results depend on the processing

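No paired analysis was possible because the ages share no replicate number. The number of genes called ran from 4575 to 8796 with 1 library left out, against 7135, and the 6 calls among the 10 receptors became 6 to 7. Over the same fits the number called was 7 to 12 for the other nuclear receptors, 9 to 15 for coregulators, 1 to 3 for thyroid hormone handling, 3 to 7 for thyroid hormone responsive genes, 0 to 2 for glucocorticoid handling, 6 to 10 for clock genes and 4 to 11 for targets of oestrogen-related receptors. The estimate changed sign for Thra (−0.11 to 0.066 over the libraries left out), Nr3c1 (−0.83 to 0.29), Fos (−0.30 to 0.062) and Ncor1 (−0.0063 to 0.059), none of which was called. Nr4a2 gained a call in 6 of 13 alternatives, with adjusted p from 0.00928 to 0.118 over all 13. Of 41 other called genes under the rule for naming, 27 were called under each alternative and 14 were not, 13 of these only when a library was left out and Fosb also under upper-quartile normalization (0.64). The cause of these changes was not tested. With 3 samples an age, exact permutation tests cannot go below 0.1. The lowest count of a receptor in a sample was 68 (Nr4a2), while Dio2, Dio3 and Hsd11b1 stayed under 1 CPM in each sample and are measured less firmly.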
